A study of Mus musculus with 11 samples.

Results

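Reelin, 2 neurotrophin receptors and 6 genes of axon guidance were followed through the mesenchymal cells of the mouse liver. The 9 genes were taken by symbol from the 27998 genes of the 10X table and were all found there, and all were found among the 23997 symbols of the Smart-seq2 tables. Reln encodes reelin, a secreted glycoprotein. Slit2, Slit3 and Sema3c encode secreted guidance ligands, and Sema4b a semaphorin of the cell membrane. Robo1 and Robo2 encode receptors of the slits, Ngfr the p75 neurotrophin receptor and Ntrk2 the receptor TrkB.

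Guidance ligands were first known for steering growing axons and migrating neurons. Slits bind Robo receptors, semaphorins bind plexins and neuropilins, neurotrophins bind Trk receptors and p75, and reelin binds the lipoprotein receptors Vldlr and Lrp8 and signals through Dab1. In the liver, hepatic stellate cells (HSCs) are the vitamin A-storing pericytes of the sinusoids and share several such genes with neural cells, whereas fibroblasts (FBs) lie around the portal tract and vascular smooth muscle cells (VSMCs) in the vessel walls.

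All cells came from C57BL/6 Pdgfrb-BAC-eGFP mice, whose GFP is driven by regulatory sequence of Pdgfrb, and were sorted as GFP+ CD45- CD102-, so every group, uninjured mice included, carries the reporter. The 5 libraries of 10X Chromium were uninjured mice with digestion protocol 1, uninjured mice with protocol 2, mice injected with carbon tetrachloride (CCl4) over 6 weeks with protocol 1 and with protocol 2, and mice killed 72 h after a single dose of CCl4 with protocol 2. Each library pooled 3 mice, and the labels give no ages. The 6 Smart-seq2 plates held wells of uninjured mice beside wells of mice 14 days after bile duct ligation (BDL, plates 1, 2 and 4), beside wells of mice given CCl4 over 6 weeks (plates 3 and 5), or alone (plate 6). A portion below is the set of wells that 1 mouse filled on 1 plate.

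Cell types were named from clusters made without the 9 genes or any of the 96 genes of 12 pathway lists. The 10X libraries gave 4002 and 2607 FB-like cells (uninjured and 6 weeks), 1691 and 3017 VSMC-like cells, and 6850, 5450 and 7293 HSC-like cells (uninjured, 6 weeks and 72 h). FB- and VSMC-like cells came from protocol 1 and HSC-like cells from protocol 2, so in 10X the type cannot be told apart from the protocol and library. Median UMIs per cell ran from 4299 in the uninjured library of protocol 1 to 11343.5 at 72 h, and pairs of libraries shared 33 to 74 cell barcodes. The summed level of 7 HSC markers in HSC-like cells was 26205 CPM (UMIs per 1000000 UMIs) in uninjured mice, 13880 at 6 weeks and 5794 at 72 h, and all 7 were detected in each library. There was 1 library for each condition and protocol, so 10X differences have no replicate check, no test was made, and the 95% intervals given cover counting error only. In bulk sums such as these, fewer cells with a transcript and less RNA per cell cannot be told apart, which is why shares of cells are given beside the levels of the leading genes.

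The sequences just upstream of the start sites are shown for the 3 genes most restricted to HSC-like cells, Reln, Ngfr and Robo2, and for Ntrk2, a receptor found in the other cell types. They are RefSeq sequences of GRCm38.p6 (mm10), 5′ to 3′ on the strand of the gene, from the side of the promoter outside annotated UTRs. Capitals mark GC boxes (GGGCGG on either strand) and, in Robo2, an E-box (CAGCTG). For Robo2, which has several start sites in RefSeq, the one bordering the annotated gene is shown.
Reln, chr5:22344706-22344955, minus strand: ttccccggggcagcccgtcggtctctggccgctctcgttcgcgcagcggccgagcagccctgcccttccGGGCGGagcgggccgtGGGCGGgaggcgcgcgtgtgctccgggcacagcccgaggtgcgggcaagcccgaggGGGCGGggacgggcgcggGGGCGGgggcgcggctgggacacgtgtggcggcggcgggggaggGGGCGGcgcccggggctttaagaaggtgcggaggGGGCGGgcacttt
Ngfr, chr11:95587736-95587948, minus strand: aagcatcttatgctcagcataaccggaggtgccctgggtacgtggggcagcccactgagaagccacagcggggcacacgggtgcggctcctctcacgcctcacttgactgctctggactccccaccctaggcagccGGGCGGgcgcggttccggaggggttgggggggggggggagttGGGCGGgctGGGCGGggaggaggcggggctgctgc
Robo2, chr16:74411826-74412075, minus strand: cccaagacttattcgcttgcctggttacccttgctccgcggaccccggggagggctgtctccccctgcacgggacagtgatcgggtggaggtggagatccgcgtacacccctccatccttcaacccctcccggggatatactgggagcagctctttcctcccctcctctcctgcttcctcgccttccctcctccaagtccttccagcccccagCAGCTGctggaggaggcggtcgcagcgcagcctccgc
Ntrk2, chr13:58806319-58806568, plus strand: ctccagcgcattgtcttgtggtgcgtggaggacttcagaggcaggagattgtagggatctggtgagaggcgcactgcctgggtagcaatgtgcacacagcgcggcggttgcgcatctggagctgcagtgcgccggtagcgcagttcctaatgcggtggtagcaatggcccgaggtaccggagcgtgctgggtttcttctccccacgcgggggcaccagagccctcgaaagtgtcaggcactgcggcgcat
The Reln stretch holds 6 GC boxes and has 80.0% G and C, against a median of 52.4% over 32851 promoter windows of 250 bases. The Ngfr stretch holds 3 GC boxes, the Robo2 stretch none and the Ntrk2 stretch none. Of all windows, 32.7% hold a GC box and 13.0% the E-box. These matches describe the letters only.

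In GRCm38, Reln lies on chromosome 5 (21884454 to 22344702, minus strand), as do Sema3c (17574281 to 17730268, plus) and Slit2 (47983138 to 48307733, plus). Robo1 (72308306 to 73046095, plus) and Robo2 (73891839 to 74411825, minus) lie on chromosome 16, with 846 kb between them. Ngfr (95568818 to 95587735, minus) and Slit3 (35121224 to 35708507, plus) lie on chromosome 11, Ntrk2 on chromosome 13 (58806569 to 59133970, plus) and Sema4b on chromosome 7 (80186841 to 80226527, plus). All 9 are annotated as protein-coding.

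The 9 genes fell into 2 sets by cell type. Reln, Ngfr, Robo1 and Robo2 had their highest level in HSC-like cells, and Slit2, Slit3, Sema3c and Ntrk2 in FB-like cells, while Sema4b differed less between types. Levels are UMIs of the gene per 1000000 UMIs summed over the cells of a type in a library (CPM). These differences between types are descriptions, since the types were made from the same cells.

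**Figure D1:**
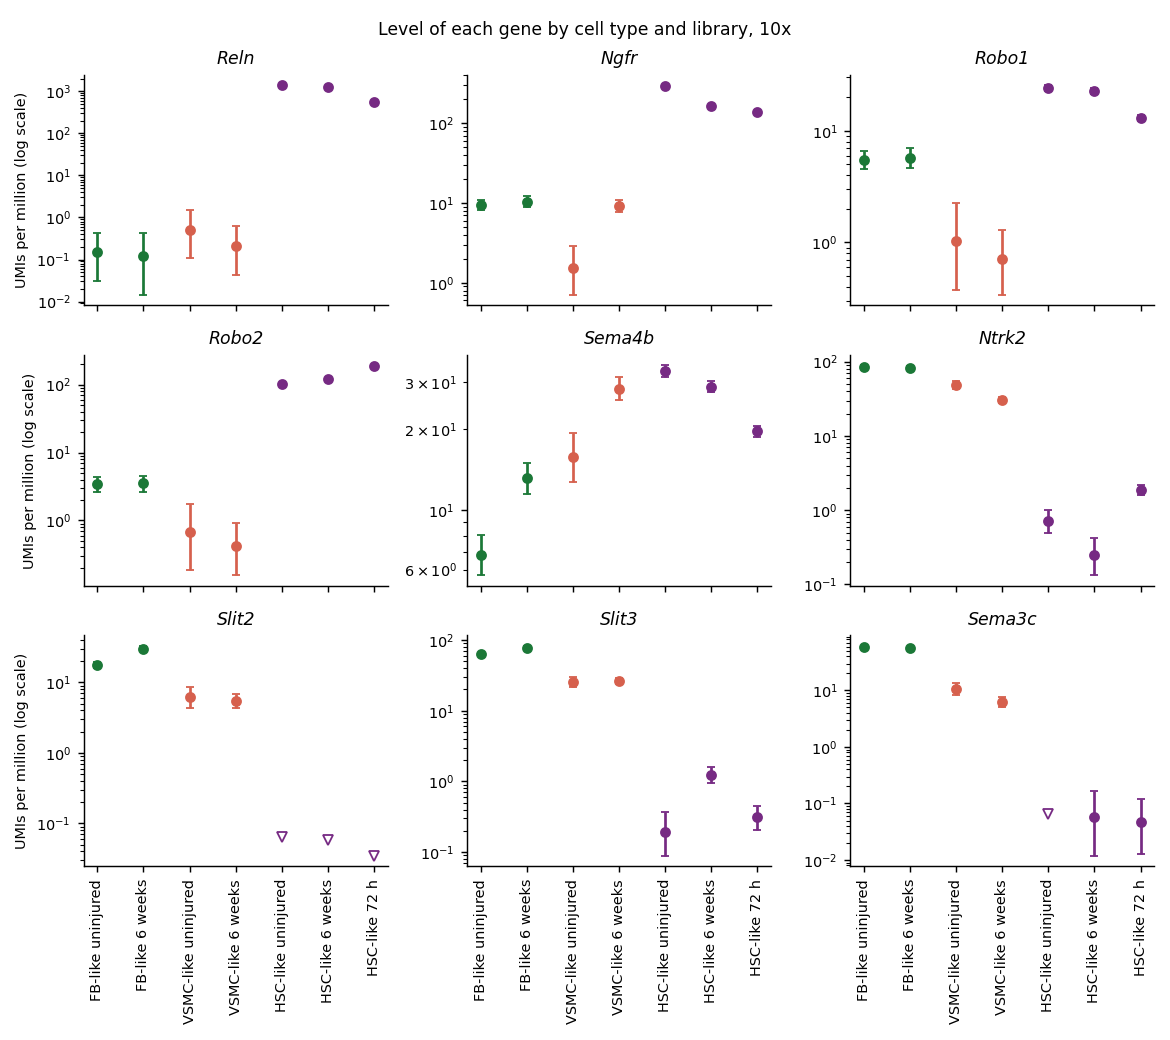
Level of each gene (y axis, UMIs per 1000000 on a log scale) in FB-, VSMC- and HSC-like cells of each 10X library (x axis), with exact 95% Poisson intervals; open triangles are libraries with no UMI, drawn at the level of 3 UMIs. Reln is at 566 to 1405 CPM in HSC-like cells and below 1 CPM in the other types, and Slit2 has no UMI in any HSC-like library.

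Among the ligands, reelin belonged to the HSC-like cells. Reln was at 1405 CPM in uninjured HSC-like cells (interval 1395 to 1416), 1280 at 6 weeks (1270 to 1290) and 566 at 72 h (561 to 571). It was at 0.150 and 0.119 CPM in FB-like cells and at 0.514 and 0.212 in VSMC-like cells, in each case from 2 or 3 UMIs. A Reln UMI was found in 99.5% of uninjured HSC-like cells, 99.2% at 6 weeks and 97.0% at 72 h, against 0.0750% of uninjured FB-like cells. Nearly every HSC-like cell therefore held Reln in each library, and the trace elsewhere in 10X was near the limit of detection. On the plates Reln was at 7703 and 8620 reads per 1000000 (RPM) in the 154 and 158 HSC-like wells of 2 uninjured mice and was read in all 312 wells. In the 18 FB-like wells of the same plate Reln was read in 11, from 18 reads in all (2.22 RPM), and Ngfr was at 203 RPM, against 14.2 to 58.4 in the uninjured FB-like portions of the other plates. The FB-like portions of those plates had 0 to 51.3 RPM of Reln.

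The slits and Sema3c had few or no UMIs in HSC-like cells. Slit2, a ligand of Robo receptors, was at 17.7 CPM in uninjured FB-like cells and 30.05 at 6 weeks, and at 6.16 and 5.51 in VSMC-like cells. In HSC-like cells 0 of 6850, 5450 and 7293 cells had a Slit2 UMI, which allows shares of cells with a UMI of up to 0.0438%, 0.0550% and 0.0411% and sets no limit on cells whose transcripts were not captured. Slit3 was at 62.8 and 78.2 CPM in FB-like cells, 25.3 and 26.1 in VSMC-like cells, and 0.194, 1.25 and 0.313 in HSC-like cells. Both slit ligands thus had the order FB-like, VSMC-like, HSC-like, without overlap of the intervals. Sema3c, which signals through neuropilins and plexins, was at 57.9 and 55.8 CPM in FB-like cells and at 10.8 and 6.36 in VSMC-like cells. In HSC-like cells it had 0, 3 and 4 UMIs. On the plates, HSC-like wells had at most 0.0545 RPM of Slit2, 0.0442 of Sema3c and 1.59 of Slit3.

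Sema4b, a membrane semaphorin, was found in all types. It was at 32.9, 28.9 and 19.6 CPM in HSC-like cells (uninjured, 6 weeks and 72 h), at 15.7 and 28.3 in VSMC-like cells, and at 6.81 and 13.1 in FB-like cells (uninjured and 6 weeks). The intervals of VSMC-like cells at 6 weeks (25.6 to 31.2) and of HSC-like cells at 6 weeks (27.4 to 30.4) overlapped, so that order was not resolved at this depth.

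The receptors were split between types. Ngfr was at 297 CPM in uninjured HSC-like cells (292 to 302), 166 at 6 weeks (162 to 169) and 137 at 72 h (135 to 140). In FB-like cells it was at 9.47 and 10.5 CPM, and in VSMC-like cells at 1.54 and 9.18. Ngfr was therefore 31.4-fold higher in uninjured HSC-like than FB-like cells, the next type. Robo2 was at 102, 121 and 188 CPM in HSC-like cells (uninjured, 6 weeks and 72 h), at 3.41 and 3.50 in FB-like cells and at 0.685 and 0.424 in VSMC-like cells. Robo1 was at 24.2, 22.7 and 13.0 CPM in HSC-like cells, whereas FB-like cells had 5.51 and 5.70 and VSMC-like cells 1.03 and 0.706. Both Robo receptors thus had the order HSC-like, FB-like, VSMC-like, and were highest in the type that was lowest in both slits. Ntrk2 had another pattern, with 84.7 and 82.4 CPM in FB-like cells, 48.4 and 30.2 in VSMC-like cells, and 0.711, 0.249 and 1.88 in HSC-like cells.

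On the plates the receptors stood on the same sides by value, but all HSC-like wells came from 2 uninjured mice of plate 6. Type therefore cannot be told apart from mouse and plate there either. In the HSC-like wells Ngfr was at 767 and 553 RPM, Robo2 at 206 and 242, and Robo1 at 56.6 and 41.0. Sema4b was at 44.0 and 30.9 and Ntrk2 at 0.295 and 0.109. Uninjured FB-like portions of plates 1 to 5 had medians of 32.9, 7.31, 12.5, 11.2 and 510 RPM, genes in the same order. In the FB-like wells of plate 6, from another mouse, Ngfr was higher than in those portions, as given above. Ngfr was read in 83.7% and Robo2 in 75.3% of the 312 wells. Smart-seq2 reads cover whole transcripts and are not scaled by length here, so plate levels are compared within a gene only.

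The FB-associated genes in VSMC-like cells stood beside some FB marker RNA. The summed level of 8 FB markers in VSMC-like cells was 12.8% of that in FB-like cells in uninjured mice and 10.7% at 6 weeks. Ntrk2 in VSMC-like cells was at 57.2% and 36.7% of its FB-like level, Slit3 at 40.3% and 33.4%, Slit2 at 34.9% and 18.3%, and Sema3c at 18.6% and 11.4%. Ntrk2 and Slit3 were thus well above the share of the FB markers, and Sema3c close to it. The part of FB RNA in these levels was not tested. In the protocol 1 libraries, 44 and 24 cells took the name HSC; they had 96.9 and 328 CPM of Reln beside 1066 and 1015 CPM of the FB marker Dpt, and they were left out.

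Single cells seldom held more than a few of the 9 genes. HSC-like cells had a median of 2 of them in uninjured mice and of 3 at 6 weeks and 72 h, and 12.2%, 16.3% and 14.5% had 4 or more. FB-like cells had a median of 1, and VSMC-like cells of 0, with none detected in 72.0% and 64.4% of VSMC-like cells. These counts grow with depth, which was higher in the injured libraries.

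At 72 h after CCl4, Reln and Ngfr were lower in HSC-like cells and Robo2 was higher. Reln fell from 1405 to 566 CPM, 2.48-fold (2.45 to 2.51), and Ngfr from 297 to 137 CPM, 2.17-fold (2.11 to 2.22). Robo1 was at 24.2 and 13.0 CPM, 1.86-fold lower (1.71 to 2.02), and Sema4b at 32.9 and 19.6, 1.67-fold lower (1.56 to 1.79). Robo2 was at 102 and 188 CPM, 1.85-fold higher (1.79 to 1.91). A gene is called here when it differs at least 2-fold and has at least 10 CPM in the higher group: of the 5 genes with that level, 2 were called lower and 0 higher, where 9.56% of 8385 genes were called lower and 7.05% higher (16.6% in all). The median log2 fold was -0.89 over these 5 genes and -0.22 over all genes, so the folds stand on a general shift of that size. With scaling by edgeR's TMM factors, which moved all log2 folds by 0.14, Reln stayed called (fold 0.443), Ngfr missed the limit (fold 0.508) and Robo2 passed it (fold 2.03), and the share of all calls that were higher went from 42.4% to 56.0%. The HSC marker sum fell over the same 2 libraries, from 26205 to 5794 CPM, while the VSMC marker sum rose from 594 to 1996. Their part in the folds was not tested.

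**Figure D2:**
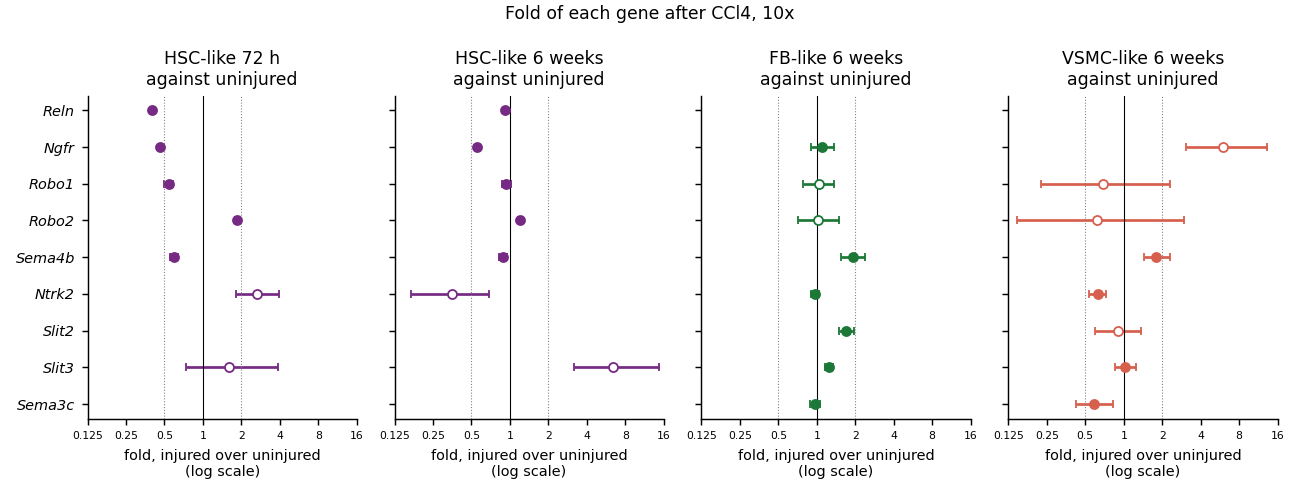
Fold of each gene after CCl4 in 10X (x axis, injured over uninjured on a log scale, with 95% counting intervals) for 4 comparisons; filled points have at least 10 CPM in 1 of the libraries, open points do not, dotted lines mark 2-fold, and genes with 3 or fewer UMIs in either library are not drawn. At 72 h Reln (0.403) and Ngfr (0.461) lie beyond 2-fold to the left and Robo2 (1.85) to the right of 1.

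The share of HSC-like cells with a UMI moved with the level, and so does not show how a change was spread over cells. To compare libraries of unequal depth, each cell was thinned to 2000 UMIs, a depth that 6735 of 6850 uninjured cells and every injured cell reached. Reln was then found in 92.2% of uninjured cells, 88.8% at 6 weeks and 65.5% at 72 h, Ngfr in 38.9%, 24.9% and 22.4%, and Robo2 in 19.1%, 21.3% and 29.96%. Before thinning, the shares were 70.2%, 60.3% and 57.4% for Ngfr and 47.1%, 61.1% and 75.0% for Robo2. Both ways, fewer cells had Ngfr and more had Robo2 at 72 h than in uninjured mice. Robo1 and Sema4b, found in 4.83% and 6.65% of thinned uninjured cells, were too rare for such a comparison to say more than their levels.

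At 6 weeks the genes of the HSC-like cells had moved less. Ngfr was at 166 CPM against 297, 1.79-fold lower (1.75 to 1.84), and Robo2 at 121 against 102, 1.19-fold higher (1.15 to 1.24). Reln was 0.911 of its uninjured level, Robo1 0.936 and Sema4b 0.878 (0.817 to 0.943). None of these 5 genes was called, where 4.57% of 8141 genes were (2.95% higher and 1.62% lower). With TMM scaling, which moved log2 folds by 0.18, Ngfr stayed lower (0.630) and Robo2 higher (1.35), whereas Reln and Robo1 changed side (1.03 and 1.06) and Sema4b came to 0.992; the share of higher calls over all genes went from 64.5% to 86.0%. The directions of Reln and Robo1 at 6 weeks therefore depend on the scaling, as does the size of the Sema4b difference. Slit3, at 9 UMIs in uninjured and 65 in 6-week HSC-like cells, was below 2 CPM in both.

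In FB-like cells at 6 weeks, the 3 ligands Sema4b, Slit2 and Slit3 had counting intervals above 1. Sema4b was at 13.1 against 6.81 CPM, 1.93-fold (1.55 to 2.40, and 2.01-fold with cells named by their own markers), Slit2 at 30.05 against 17.7, 1.70-fold (1.481 to 1.95), and Slit3 at 78.2 against 62.8, 1.25-fold (1.15 to 1.35). Ntrk2 (fold 0.973, 0.905 to 1.04), Sema3c (0.962, 0.882 to 1.05) and Ngfr (1.10, 0.894 to 1.36) had intervals that included 1. None of the 6 genes with at least 10 CPM was called, where 2.01% of 8413 genes were (1.55% higher and 0.464% lower). The summed level of 6 VSMC markers in FB-like cells went from 527 to 1416 CPM over the same 2 libraries, and the cells with a UMI of 3 or more of them from 720 of 4002 to 1896 of 2607; their part in the folds was not tested. In VSMC-like cells, Sema4b was at 28.3 against 15.7 CPM, 1.80-fold higher (1.43 to 2.28), Ntrk2 at 30.2 against 48.4, 1.60-fold lower (1.37 to 1.87), and Slit3 at 26.1 against 25.3. Sema3c was at 6.36 against 10.8 CPM there, a fold of 0.589 (0.571 to 0.862 over the alternatives). Ngfr in VSMC-like cells rested on 9 UMIs in uninjured mice and 130 at 6 weeks, a ratio of 5.96 (3.05 to 13.3) at a level under 10 CPM. None of the 4 genes tested there was called, where 2.83% of 8234 genes were (2.31% higher and 0.522% lower). The 2 protocol 1 libraries also differed in their mix of VSMC-like clusters, as given next.

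Clusters within the types showed where each gene was held. Among FB-like clusters, the one led by Wif1 and Notum had 119 CPM of Ntrk2 in uninjured mice and 106 at 6 weeks, 31.9 and 29.7 of Ngfr, and 13.9 and 11.9 of Robo2. The cluster led by Ly6c1 and Pi16 had 109 and 165 CPM of Sema3c, and that led by Grem1 and Cxcl13 had 95.3 and 109 of Slit3 and 27.6 and 36.9 of Slit2. By value, Ngfr, Ntrk2 and Robo2 were thus highest in another FB-like cluster than Slit2, Slit3 and Sema3c in both libraries. The lead of the Grem1 cluster in Slit2 was not resolved in either library. The cluster led by Thbs4 and Sfrp2 had 24.0 CPM (20.4 to 28.0) in uninjured mice and 29.0 (24.3 to 34.3) at 6 weeks. Its lead over the Ly6c1 cluster in Slit3 was not resolved either, as the Ly6c1 cluster had 80.9 CPM (74.4 to 87.8) and 96.7 (85.7 to 108.7). The plates differed for Slit2. Their uninjured FB-like wells had most in the cluster led by Notum and Wif1, at 109 RPM against 25.3, 13.3 and 25.9 in the other clusters. In the libraries, Robo1 had its highest value in the Wif1 cluster in uninjured mice (8.85 CPM) and in the Ly6c1 cluster at 6 weeks (7.94). Each had an interval that overlapped that of the other cluster. Slit2 in the Ly6c1 cluster went from 5.93 to 21.4 CPM, more than in the other 3 FB-like clusters by value. Among VSMC-like clusters, the one led by Higd1b, with 550 cells in uninjured mice and 1904 at 6 weeks, had 3.04 and 12.1 CPM of Ngfr and 37.7 and 15.6 of Ntrk2. The cluster with Npnt among its leading genes had 2.75 and 14.8 CPM of Ngfr, and that led by Kcnh2 and Corin 0.322 and 0.256. Ngfr in VSMC-like cells was thus held by 2 of the 3 clusters. Ntrk2 was lower at 6 weeks in the Higd1b cluster. In the Kcnh2 cluster it was at 56.3 (48.3 to 65.3) and 48.6 CPM (41.9 to 56.0), with overlapping intervals, and in the Npnt cluster at 42.2 and 60.1 CPM.

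HSC-like clusters differed mostly in Ngfr, Robo2 and Sema4b. In uninjured mice the cluster led by Gcgr and Ngfr itself had 520 CPM of Ngfr, against 189 and 229 in the 2 clusters of most cells, and 80.9 CPM of Robo2 against 126 and 95.3. At 72 h the cluster led by Ltbp2 and Cthrc1 (2615 cells) had 73.4 CPM of Ngfr, 232 of Robo2 and 7.20 of Sema4b. Sema4b was highest at 72 h in a cluster of 328 cells led by Sema4b itself (136 CPM). Next was one of 1317 cells led by Abhd2, with Sema4b among its leading genes (65.4 CPM). These 2 clusters had a median of 5088 and 5891 UMIs per cell, below the 11343.5 of the library. Both were above the 32.9 CPM summed over uninjured HSC-like cells, so not every cluster at 72 h was low in Sema4b. No uninjured cluster was above 43.2, but those levels come from a separate clustering of the uninjured and 6-week libraries. The clustering used at 72 h also held 1144 uninjured cells in a cluster led by Abhd2, whose Sema4b was not measured. Of the 2 clusters led by cell division genes at 72 h, one (983 cells, led by Hist1h2ap and Ccna2) had 81.2 CPM of Ngfr and 163 of Robo2, and the other (326 cells, led by Prc1 and Cdc20) had 412 and 59.2. Dividing cells thus held both patterns. At 6 weeks the cluster led by Saa3 and Lcn2 (1001 cells) had 76.5 CPM of Ngfr, 160 of Robo2 and 992 of Reln. Reln ran only from 396 to 703 CPM over the 6 clusters at 72 h.

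The position along the lobule was followed with the study's own list of 52 portal and 29 central genes, which was chosen on the uninjured cells. Within each library, HSC-like cells were parted by a score over this list into portal vein-associated (PaHSC-like) and central vein-associated (CaHSC-like) cells. Ngfr and Robo2 belong to the list and were each left out of the score when their own ratio was taken, but the ratios in uninjured cells are not independent of how the list was made. The paper picked the component behind the list for its correlation with Ngfr. A higher Ngfr in uninjured PaHSC-like cells was therefore built into the list, and leaving Ngfr out of the score does not undo that. Apart from the list, the paper placed HSCs high in NGFR protein in the periportal region by immunofluorescence staining. The score is a range and not a type: 495 of 6850 uninjured cells, 251 of 5450 at 6 weeks and 257 of 7293 at 72 h lay within 0.1 SD of the limit. There were 2992, 1702 and 1716 PaHSC-like cells in the uninjured, 6-week and 72 h libraries.

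Ngfr was higher in PaHSC-like and Robo2 in CaHSC-like cells of every library, and both gaps were widest at 72 h with this limit. Ngfr was at 462 CPM in PaHSC-like and 166 in CaHSC-like uninjured cells, a ratio of 2.79 (2.69 to 2.89). The ratio was 3.42 at 6 weeks (327 and 95.5 CPM) and 4.31 at 72 h (349 and 81.0 CPM). With this limit, CaHSC-like cells had less Ngfr in both injured libraries by a larger factor than PaHSC-like cells did. The limit was set anew in each library, so the groups need not be the same cells before and after injury. Robo2 was at 82.4 and 117 CPM in uninjured PaHSC- and CaHSC-like cells (ratio 0.702, 0.661 to 0.745), at 72.7 and 142 at 6 weeks (0.510), and at 81.0 and 216 at 72 h (0.375). Comparing only the ends of the score instead (2283 highest against 2284 lowest uninjured cells, 1817 against 1817 at 6 weeks and 2431 against 2431 at 72 h), the ratios of uninjured, 6-week and 72 h cells were 3.85, 4.10 and 4.20 for Ngfr and 0.628, 0.479 and 0.477 for Robo2, so the size of the widening depended on where the cells were parted. The PaHSC-like cells were 2992 of 6850 uninjured, 1702 of 5450 6-week and 1716 of 7293 72 h cells. Their levels in uninjured and 72 h cells (Robo2 82.4 and 81.0 CPM, Ngfr 462 and 349) thus come from unlike shares of the libraries. By cluster, Robo2 was at 131 CPM in the 1719 cells at 72 h led by C6, Mest and Alpl, which had 247 of Ngfr. It was at 80.9 in the uninjured cluster led by Gcgr and Ngfr, which comes from the separate clustering with the 6-week libraries. Sema4b had ratios of 1.58, 1.67 and 2.20 in uninjured cells, at 6 weeks and at 72 h. Reln (0.860, 0.951 and 0.833) and Robo1 (0.867, 0.962 and 0.891) were close to even.

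**Figure D3:**
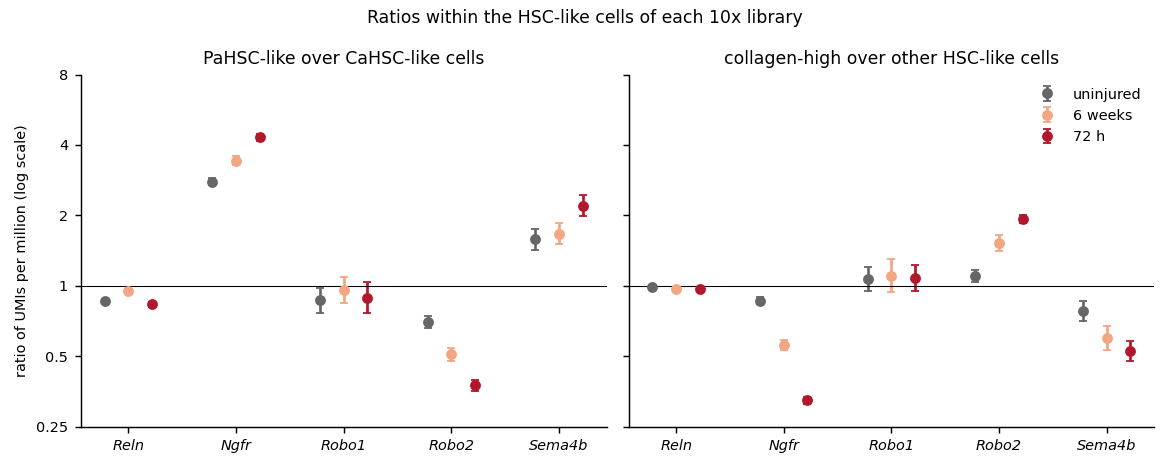
Ratio of the level of each gene (y axis, log scale, with 95% counting intervals) between PaHSC-like and CaHSC-like cells (left) and between HSC-like cells high in fibrillar collagen and the others (right), in the 3 libraries with HSC-like cells. Ngfr lies at 2.79 to 4.31 on the left and at 0.324 to 0.865 on the right, and Robo2 on the opposite side of 1 in both panels.

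The same 5 genes were compared between HSC-like cells high in Col1a1, Col1a2 and Col3a1 and the other HSC-like cells of the library. The score was the geometric mean of the 3 log levels, with a limit set within each library. A cell without a UMI of any 1 of the 3 scored 0, so detection at the depth of the cell enters the split. Collagen-high cells numbered 3396 of 6850, 4389 of 5450 and 4548 of 7293 in uninjured, 6-week and 72 h cells. The ratios of the 3 libraries thus come from unlike shares of cells, and the part of depth in them was not tested. Ngfr was lower in them, with ratios of 0.865 (0.836 to 0.894), 0.560 (0.533 to 0.588) and 0.324 (0.313 to 0.337). Robo2 was higher, with ratios of 1.10 (1.04 to 1.17), 1.52 (1.41 to 1.65) and 1.94 (1.86 to 2.01). Collagen-high cells thus differed from the others in the same direction as CaHSC-like cells in both genes in every library. At 72 h, the 730 cells highest in these collagens against the rest gave 0.443 for Ngfr and 1.27 for Robo2, in the same directions. Sema4b was lower (0.781, 0.596 and 0.527), while Reln was at 0.988, 0.969 and 0.972. The paper reports lower Reln in HSCs with high fibrillar collagen after injury, and weaker Reelin staining in the fibrotic niche. The split here named 4389 of 5450 cells collagen-high at 6 weeks. It does not single out cells that overexpress collagen, so these Reln ratios cannot be set against that report. At 72 h the few Ntrk2 UMIs of HSC-like cells were almost all in collagen-high cells, 159 against 3. In those 730 cells Ntrk2 was at 12.0 CPM against 0.661 in the others, and in the 545 such cells at 6 weeks Slit3 was at 6.89 against 0.579. The FB marker sum of HSC-like cells was also higher after injury, at 569 CPM at 6 weeks and 336 at 72 h against 31.4 in uninjured mice, and its part in these traces was not tested.

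On the plates, FB-like wells of BDL mice had more Slit3 than the uninjured wells beside them. In RPM, the 5 BDL portions were at 604, 565, 637, 321 and 795, the 4 CCl4 portions at 289, 116, 94.5 and 442, and the 5 uninjured portions at 213, 79.3, 215, 406 and 155. Each of the 5 BDL portions was above the uninjured portion of its plate, although the groups overlapped, since 1 BDL portion (321) lay below 1 uninjured portion (406). BDL portions of the same plate share its uninjured portion, so these comparisons are not separate. The share of all genes with every portion on one side was not counted, so this cannot be read as particular to Slit3. The mean was 584 ± 171 RPM in BDL (SD, n = 5 portions), 235 ± 163 in CCl4 (n = 4 portions) and 214 ± 121 in uninjured wells (n = 5 portions). Portions on different plates may not be separate mice. In edgeR's quasi-likelihood test with plate as a term, BDL against uninjured gave a log2 fold change of 1.74 ± 0.59 (SE) and an adjusted p = 0.69, so the difference did not pass after adjustment over 13262 genes. The call depended on the tool and filter: the adjusted p ran from 2.94e-04 without the low-count filter, and 0.031 in DESeq2, to 1 over the alternatives, while the log2 fold change stayed between 1.28 and 2.04.

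Slit2 and Ntrk2 lay the other way in BDL. Slit2 was at 10.2, 13.1, 29.3, 8.86 and 38.3 RPM in BDL, at 37.8, 39.6, 129 and 30.9 in CCl4, and at 64.1, 109, 18.8, 27.1 and 49.99 in uninjured portions. Ntrk2 was at 81.5, 365, 227, 279 and 146 RPM in BDL, 295, 674, 720 and 288 in CCl4, and 510, 651, 383, 225 and 609 in uninjured portions. Ntrk2 was below its own plate's uninjured portion in 5 of 5 BDL portions and Slit2 in 4 of 5, with overlapping groups in both. Here too, BDL portions of the same plate share its uninjured portion, and the share of all genes with such counts was not taken. The log2 fold changes were -1.74 ± 0.62 (SE, adjusted p = 0.71) for Slit2 and -1.06 ± 0.44 (adjusted p = 0.75) for Ntrk2 by edgeR. Neither passed the threshold in edgeR or in any alternative run.

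**Figure D4:**
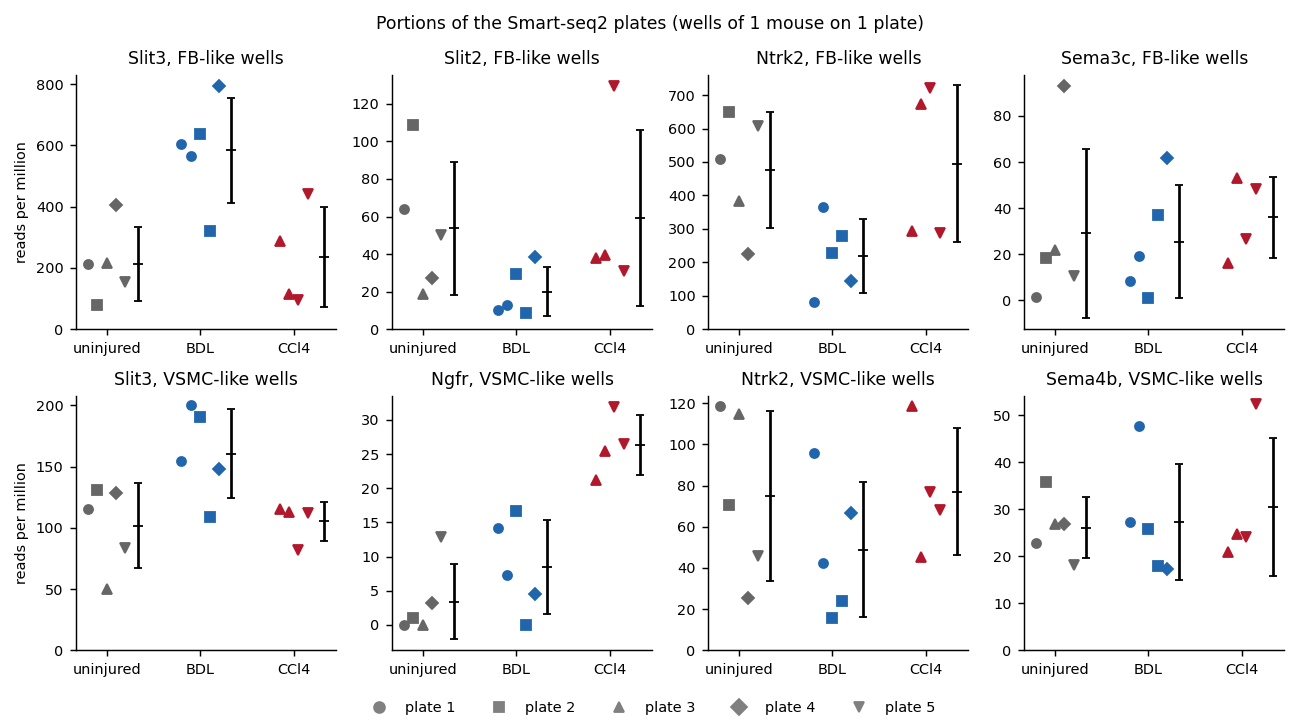
Reads per 1000000 (y axis) by condition (x axis), for 4 genes of FB-like and 4 genes of VSMC-like wells; each point is a portion, its shape the plate, and the bars are the mean and SD over portions. Slit3 in FB-like wells has its 5 BDL portions at 321 to 795 RPM, and Ngfr in VSMC-like wells has its 4 CCl4 portions at 21.2 to 31.9 RPM, above all uninjured portions.

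The makeup of the FB-like wells moved with condition. A cluster led by Notum and Wif1 held 71 of 235 FB-like wells of uninjured mice (30.2%), 32 of 112 of CCl4 mice (28.6%) and 0 of 281 of BDL mice. A count of 0 allows up to 1.07% of these wells for counting error only, and the wells come from 5 portions. Its wells had 1013 RPM of Ntrk2 in uninjured and 885 in CCl4 mice, 109 and 120 of Slit2, but only 50.6 and 47.6 of Slit3. It was thus high in the 2 genes that were lower in BDL and low in the one that was higher. With these wells left out, an alternative added after this was seen, the BDL log2 fold changes by edgeR were 1.29 for Slit3 (adjusted p = 0.78), -0.45 for Slit2 (adjusted p = 1) and -0.12 for Ntrk2 (adjusted p = 1). Since BDL held none of these wells, leaving them out altered the other conditions only, and the part of the cluster in the differences was not tested. Within the other 3 FB-like clusters, summed over wells, Slit3 was at 492 RPM in BDL against 108 in uninjured wells (led by Comp), 712 against 416 (Sfrp2) and 976 against 640 (Has1). By these sums Slit3 was higher in BDL in each of these clusters, and in CCl4 it was at 196, 429 and 625 RPM. The wells came from 5, 3 and 4 portions in BDL, 5, 4 and 3 in uninjured and 4, 3 and 2 in CCl4 mice. Only 9 CCl4 wells were in the Sfrp2 cluster. Plate 1 held 77 of all 131 wells of the Sfrp2 cluster, and plate 4 held 85 of all 127 of the Has1 cluster. Wells are not replicates, and no test was made within clusters.

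**Figure D5:**
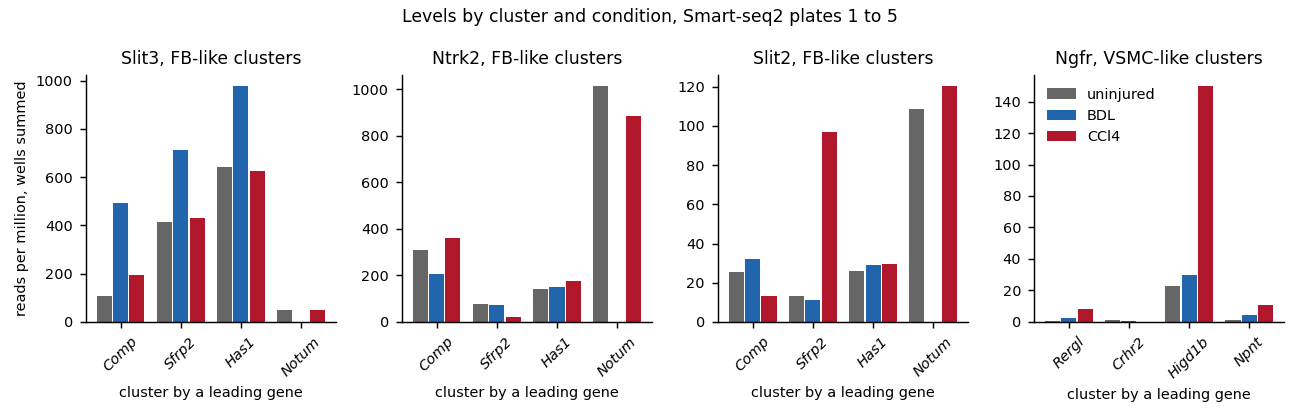
Reads per 1000000 (y axis, reads summed over all wells of a cluster and condition on plates 1 to 5, so without an error bar) of Slit3, Ntrk2 and Slit2 in FB-like clusters and of Ngfr in VSMC-like clusters, each cluster named by a leading gene (x axis). No BDL well fell in the Notum cluster; Slit3 in BDL is at 492, 712 and 976 RPM in the Comp, Sfrp2 and Has1 clusters.

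No gene of the 9 passed the threshold in FB-like wells, and neither did any other gene. In BDL against uninjured, 0 of 13262 genes (0.0%) had an adjusted p under 0.05 by edgeR, where 818 had an unadjusted p under 0.05 and DESeq2 called 319. In CCl4 against uninjured the count was 0 (0.0%), with 305 at an unadjusted p under 0.05 and 110 by DESeq2, and every one of the 9 had an adjusted p = 1 by edgeR. Left out of the FB-like CCl4 wells were 143 wells of an unnamed cluster in which all 8 FB markers were detected. The CCl4 log2 fold changes were 0.88 ± 0.75 (SE) for Slit2, 0.42 ± 0.64 for Slit3 and 0.05 ± 0.53 for Ntrk2. The 95% intervals of Slit2 (-0.90 to 2.66) and Slit3 (-1.09 to 1.93) include the 1.70- and 1.25-fold differences seen in 10X as well as no change. Sema3c was spread from 0.946 to 61.8 RPM in BDL, 16.4 to 53.3 in CCl4 and 1.64 to 92.9 in uninjured portions, with no order of groups. Sema4b was at a median of 24.6, 15.3 and 11.2 RPM in BDL, CCl4 and uninjured portions, and Ngfr at 18.2, 29.8 and 32.9, again overlapping. Reln was read in 2 of 281 BDL wells, 0 of 112 CCl4 wells and 5 of 235 uninjured wells of plates 1 to 5. Between BDL and CCl4, which share no plate, each of the 9 had an adjusted p = 1 by edgeR.

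In VSMC-like wells, among the genes followed here, only Ngfr had CCl4 and uninjured portions that did not overlap. The share of all genes without such overlap was not counted, so the lack of overlap cannot be read as particular to Ngfr. Ngfr was at 21.2, 25.5, 31.9 and 26.5 RPM in the 4 CCl4 portions. The 5 uninjured portions were at 0, 0.979, 0.0324, 3.24 and 12.9, and those of BDL at 14.1, 7.31, 16.7, 0 and 4.48. All 4 CCl4 portions were above the uninjured portion of their plate, the direction also seen in 10X, in a comparison where edgeR called 0.0% of 13033 genes. CCl4 portions of the same plate share its uninjured portion, so these comparisons are not separate. Ngfr was read in 25 of 208 CCl4 wells (12.0%), 21 of 349 BDL wells (6.02%) and 12 of 322 uninjured wells (3.73%). It rested on few wells, and edgeR gave a log2 fold change of 3.13 ± 2.64 (SE) with an adjusted p = 1 for CCl4 and 3.54 ± 2.40 with an adjusted p = 0.82 for BDL. In the cluster led by Tfap2a, Fabp7 and Higd1b, Ngfr was at 150 RPM in 32 CCl4 wells, 29.7 in 72 BDL wells and 22.6 in 31 uninjured wells. That cluster thus held 32 of 208 CCl4, 72 of 349 BDL and 31 of 322 uninjured wells named VSMC-like, and the part of this mix in the difference was not tested.

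The other genes of the VSMC-like wells were less apart. Slit3 was at 154, 200, 190, 109 and 148 RPM in BDL, 115, 113, 81.6 and 112 in CCl4 and 116, 131, 50.1, 129 and 83.4 in uninjured portions. The edgeR log2 fold changes of Slit3 were 0.42 ± 0.26 (SE, adjusted p = 0.80) for BDL and 0.70 ± 0.32 (adjusted p = 1) for CCl4. Ntrk2 had a median of 42.4, 72.4 and 70.7 RPM in BDL, CCl4 and uninjured portions, and Sema4b of 25.7, 24.4 and 26.9. Sema4b in VSMC-like wells thus did not show the 1.80-fold difference of 10X by its medians, with an edgeR log2 fold change for CCl4 of 0.39 ± 0.57 (SE, adjusted p = 1) whose 95% interval, -0.94 to 1.73, includes a difference of that size. Robo1 was above its plate's uninjured portion in 5 of 5 BDL portions and below it in 4 of 4 CCl4 portions, with overlapping groups. Its medians were only 3.76, 0.610 and 0.979 RPM in BDL, CCl4 and uninjured portions. Reln and Robo2 had too few reads for a test. In all, 1 of 13033 genes passed in BDL (0.00767%) and 0 in CCl4 (0.0%), none of them one of the 9; DESeq2 called 376 and 190, and 977 and 471 had an unadjusted p under 0.05 by edgeR.

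The partners of these genes, taken from the 12 lists, were measured in the same cells. The neurotrophin Ntf3 was at 56.3 CPM in uninjured HSC-like, 210 in VSMC-like and 25.7 in FB-like cells. Of the reelin receptors, Vldlr was at 29.4 CPM in uninjured FB-like and 47.1 in VSMC-like cells, with no UMI in uninjured HSC-like cells and 24 UMIs in each injured HSC-like library (0.460 CPM at 6 weeks and 0.278 at 72 h). Lrp8 had at most 12 UMIs in any group (0.848 CPM, in VSMC-like cells at 6 weeks), and Dab1 had 10 in HSC-like cells at 72 h and none in the other groups. Of the semaphorin receptors, Nrp1 was at 131, 114 and 50.5 CPM in uninjured FB-, HSC- and VSMC-like cells, and Plxna4 at 36.7, 3.97 and 8.73.

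At 72 h, 28 of the 86 other pathway genes in the 10X table had the level to be tested in HSC-like cells, and 3 were called higher and 8 lower, where 16.6% of all genes were called. With TMM scaling 4 of the 28 were called higher and 3 lower (Sema3d, Ntn1 and Epha2), so most of the lower calls depend on the scaling. The netrin Ntn1 fell from 287 to 123 CPM (2.33-fold), and the semaphorins Sema3d (92.2 to 34.4 CPM) and Sema6c (36.8 to 17.2) were 2.68- and 2.14-fold lower. Among ephrins and their receptors, Efna5, Epha2, Epha7 and Ephb4 were 2.02- to 2.46-fold lower and Efna2 2.97-fold higher. The plexin Plxnb1 was 2.17-fold lower, Plxna4 3.97-fold higher (3.97 to 15.7 CPM) and Nradd, a p75-like receptor, 2.38-fold higher. The median log2 fold of these 28 genes was -0.40, against -0.22 for all genes. At 6 weeks only Plxna4 (3.97 to 18.1 CPM, 4.56-fold) was called of 28 in HSC-like cells, and with TMM scaling Epha4 as well (2.16-fold higher). In FB-like cells Unc5b, a netrin receptor, was the only 1 of 33 (9.52 to 26.9 CPM, 2.83-fold), and in VSMC-like cells Unc5b (15.1 to 118 CPM, 7.83-fold) and Gpc1, a proteoglycan that binds slits (6.51 to 16.5 CPM, 2.53-fold), were called of 29. On the plates, 64 of 87 such genes could be tested in FB-like wells and 62 could in VSMC-like wells, and none passed.

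The genes most like each of the 9 across the 7 groups of type and library were found by Pearson's r of log2(CPM + 1) over 7540 genes, a description in which the groups share libraries and depth. They were Cdk18, Lama1 and Gtf3c1 for Reln, Tpra1, Rhod and Becn1 for Ngfr, Cxcl12, Itm2c and Ntn1 for Robo1, and Pxdn, Ubash3b and Coro1b for Robo2. For the FB-associated genes they were Fam150b, Cilp and Vit for Slit2, Tsc22d3, Fap and Meis1 for Slit3, Fst, Ly6c1 and Maob for Sema3c, and Syt11, Lrrc17 and Smim14 for Ntrk2. The value of r was at least 0.993 in each of these cases. It does not weigh the size of a difference, so some of these genes varied little between types. Gtf3c1 ran only from 11.6 to 20.1 CPM over the groups and Becn1 from 49.0 to 75.1. Sema4b was most like Gcgr, Ptbp1 and Csnk1d (r = 0.985, 0.985 and 0.979). Lama1, a laminin chain, had 123, 106 and 55.5 CPM in uninjured, 6-week and 72 h HSC-like cells and no UMI in the other types. Cxcl12 had 5621, 5693 and 2812 CPM in those HSC-like cells.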

How the data were processed

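The authors made the 10X UMI counts with Cell Ranger 2.1.0 on mm10, and the deposited Smart-seq2 read counts with STAR, aligning to mm10 with the eGFP and ERCC spike-in sequences added, and rpkmforgenes. No UMIs mark Smart-seq2 reads. Here, 10X cells with at least 300 genes and at most 30% mitochondrial UMIs, and wells within 3 median absolute deviations of the median for reads, genes and spike-in share, were kept (2065 of 2292 wells with a mouse). Cells were clustered on 2000 variable genes without the 96 pathway genes (10 components, 30 neighbours, Leiden 0.8) with scikit-learn 1.9.0, igraph 0.11.9 and leidenalg 0.10.2, and clusters were named from marker lists. Cells called as doublets were kept, and left out in an alternative. UMIs were summed by type and library and scaled by the total; intervals are exact Poisson or binomial. Well counts were summed over at least 5 wells per mouse, plate and type, and tested with edgeR 4.0.16 (quasi-likelihood, plate as a term, Benjamini-Hochberg) over plates 1 to 5; DESeq2 1.42.0 was an alternative. Portions had 9 to 109 FB-like and 23 to 108 VSMC-like wells, and FB-like portions held 3271476 to 46203242 reads. Nothing says that portions with 1 number on different plates are separate mice, so p-values measure the spread between portions. The test was tried on simulated data. Of the 9 genes, those with at least 10 CPM are named in each 10X comparison. Other pathway genes are named where called, as are the 3 genes most like each of the 9 in 10X. Fitted changes are printed for genes with a median of at least 20 RPM in a condition, a limit set after seeing the data. The 9 genes and the lists were chosen with earlier results of these data known. Values of some genes are not reported here.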

Additional observations from a re-analysis of the deposited data

Results flagged for a closer look

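Groups of 4 or 5 portions were taken if the highest portion reached 10 RPM, so a high outlier could itself bring its group in. Chance marks about 5% of groups without such a choice, which is therefore no measure for the count here. In 7 of 40 such groups, 1 portion lay far from the others of its condition. In FB-like wells these were Slit2 at 129 RPM in 1 CCl4 portion of plate 5 (others 30.9 to 39.6), Sema3c at 92.9 in the uninjured portion of plate 4 (others 1.64 to 21.8), Reln at 51.3 in the uninjured portion of plate 5 (others 0 to 11.6, from 3 of 58 wells) and Robo1 at 2.94 in 1 CCl4 portion of plate 3 (others 10.7 to 12.0). In VSMC-like wells they were Ngfr at 12.9 RPM in the uninjured portion of plate 5 (others 0 to 3.24), Sema4b at 52.3 in 1 CCl4 portion of plate 5 (others 20.9 to 24.7) and Slit3 at 81.6 in the other CCl4 portion of plate 5 (others 112 to 115). Of the 7 values, 5 were from plate 5. Its uninjured portion and 1 of its CCl4 portions each gave a value in both types, so the 7 values are not from separate portions.

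At 6 weeks in 10X, Ngfr was 5.96-fold its uninjured level in VSMC-like cells and 0.558 of it in HSC-like cells. Sema4b was 1.93-fold its uninjured level in FB-like and 1.80-fold in VSMC-like cells, and 0.878 of it in HSC-like cells (0.992 with TMM scaling). With 1 library in each condition and protocol, these differences between types were not tested.

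Wells that took no type name also held ligands. Slit3 was at 371 RPM in 168 wells led by Cldn6 and Epcam, and Sema3c at 586 RPM in 26 wells led by Upk1b and Krt14. The 12 wells the layout calls controls had upper limits of 134 and 82.99 RPM. Those limits rest on 5 and 2 reads from wells of 341 to 16573 reads. What the control wells held is not stated, so the limits are no measure of background. Unnamed wells were 0.647% of uninjured, 3.96% of BDL and 33.6% of CCl4 wells, and were in no comparison above. Of the 168 wells led by Cldn6 and Epcam, 143 were from CCl4 mice, against 112 CCl4 wells named FB-like. All 8 FB markers were detected in that cluster. It stayed unnamed because 2 cholangiocyte markers and no FB marker were among its leading genes.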

How the results depend on the processing

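Most values of the 9 genes kept their side. Of 128 alternative 10X folds, 114 moved by less than their counting interval and 14 moved further, 10 of them with TMM scaling, and none of the called folds changed sign. Of 444 alternative plate log2 fold changes, 409 kept direction and call, 2 passed the threshold (Slit3 in BDL FB-like wells, 1.75 in DESeq2 and 1.75 without the low-count filter) and 33 changed sign. Of 45 alternative ratios within HSC-like cells, 19 moved beyond their interval and none of the Ngfr, Robo2 or Sema4b ratios changed side of 1. Counts of called 10X genes depended most on the filter, and those of the plates on the tool. At 50 CPM, 600, 165, 40 and 68 genes were called (HSC-like 72 h, HSC-like 6 weeks, FB-like, VSMC-like) against 1393, 372, 169 and 233, and without a filter 4173, 2021, 1266 and 1280. In FB-like wells, against 0 in each of BDL, CCl4 and BDL against CCl4, DESeq2 called 319, 110 and 130 genes, edgeR without the low-count filter 246, 31 and 89, edgeR with no plate term and with the plate of uninjured mice added (2 choices changed together) 31 in BDL and 3 in BDL against CCl4, and with wells named by their own markers 4 in BDL and 1 in CCl4. In VSMC-like wells, against 1, 0 and 0, DESeq2 called 376, 190 and 163, no low-count filter gave 160, 19 and 16, and no plate term with that plate added 42 in BDL and 1 in BDL against CCl4. Leaving out 1 portion gave 0 to 0 genes in FB-like wells, 0 to 4 in VSMC-like BDL (4 without either portion of plate 4, BDL or uninjured) and 0 to 1 in VSMC-like BDL against CCl4. The causes were not tested.

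The signs that turned were all of changes that did not pass the threshold. In FB-like wells, Sema3c in BDL was -0.11 with no plate term and the plate of uninjured mice added, -0.25 with own markers and -0.48 with at least 10 wells, Ngfr in BDL 0.79 without the Notum-led wells, Sema4b in CCl4 -0.38 with no plate term and that plate added, and Ntrk2 in CCl4 -0.049 with wells kept on log10 values and -1.11 with own markers. In VSMC-like wells in CCl4, Ntrk2 was -0.25 with no plate term and that plate added, -0.0076 with log10 values and -0.48 with own markers, and Sema4b -0.097 with no plate term and that plate added. With 1 portion left out, log2 fold changes in FB-like wells ran from -0.48 to 1.38 (Sema3c) and -0.21 to 0.50 (Sema4b) in BDL, and from -0.26 to 0.33 (Ntrk2), -0.34 to 0.94 (Slit3) and -1.49 to 0.40 (Ngfr) in CCl4. In VSMC-like wells they ran from -0.58 to 0.17 (Sema4b) and -1.26 to 0.12 (Ntrk2) in BDL, and from -0.45 to 0.69 (Ntrk2) and -0.22 to 1.10 (Sema4b) in CCl4.

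Depth limits the rare genes: Slit2 and Sema3c rest on 0 to 4 UMIs in HSC-like cells, and of 126 alternative shares of cells, 97 moved beyond their interval with thinning. Each 10X group is 1 library, so condition and library cannot be told apart. Plate, which the replicate numbers count, was the block of the test. Without this replicate block, over the same portions (chosen after seeing the data), 24, 0 and 3 genes were called in FB-like wells (BDL, CCl4, BDL against CCl4) and 32, 0 and 1 in VSMC-like wells, none of them one of the 9 against uninjured. Sema3c in BDL was then -0.19 and Sema4b in CCl4 -0.21 in FB-like wells, and Sema4b in BDL 0.12 in VSMC-like wells. Ntrk2 and Sema4b in CCl4 VSMC-like wells kept their sign without it (0.077 and 0.25).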
